A study of Mus musculus with 4 samples.

Results

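Progression from G2 into mitosis depends on a set of genes whose mRNAs accumulate late in the cell cycle. The levels of 49 such genes, coding for mitotic cyclins, kinases, kinesins, spindle checkpoint proteins, condensins, cytokinesis proteins and the transcription factors that drive them, were followed in MC38 cells, a mouse colon carcinoma line, with and without editing of Cbfb. The members were chosen by gene symbol and not by their values, although earlier results of these data were known. All 49 were found among the 26322 genes listed. The control group (sgNT, labelled WT) received Cas9 with a non-targeting guide, and the edited group (sgCbfb, labelled CbfbKO) received Cas9 with a guide against Cbfb, which codes for CBFβ, the partner that strengthens DNA binding by RUNX transcription factors. Both groups thus carried Cas9 and a guide by electroporation and were harvested a week or more later. The labels name no clone, age or further treatment. There were 2 sgNT and 2 sgCbfb libraries, made by 3′ mRNA sequencing, and a further replicate of each group was set aside by the authors for poor RNA. The sources do not state whether replicates were separate cultures, so p-values measure only the spread between these samples.

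In textbook terms, cyclin B bound to CDK1 brings the cell into mitosis, Polo-like and Aurora kinases build the spindle, and the spindle checkpoint holds back the anaphase-promoting complex until every chromosome is attached. Transcription of most of these genes is held down in resting cells and early in the cycle by the DREAM complex, and is switched on in G2 by the MuvB core together with B-MYB (gene Mybl2) and FOXM1. Both forms of MuvB bind a short promoter element, the cell cycle genes homology region (CHR), which is often accompanied by CCAAT boxes bound by NF-Y. In cultured tumour cells the sum of these mRNAs follows the share of cells in G2 and mitosis, and in bulk RNA a change in the number of such cells and a change in RNA per cell cannot be told apart.

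The promoters of the members were examined first, for the element that the genes have in common and for letters of a RUNX site. RefSeq windows of GRCm38.p6, from 250 bases before to 50 bases after the start of the gene, were matched for 41 of the 49 members, all but Aurkb, Ccna2, Cdc25c, Foxm1, Incenp, Kif20a, Smc4 and Tpx2. The CHR letters TTTGAA, searched on both strands, were found in 30 of these 41 members (73.2%), against 14.0% of 9324 tested genes with a window and 20.2% of all 27025 genes with one. In 27 members the first base of the closest match lay within 60 bases of the start. The related letters TTTAAA were found in 9 members (22.0%, against 11.1% of tested genes). CCAAT, on either strand, was found in 32 members (78.0%, against 43.7% of tested genes). CHR and CCAAT letters stood in the same window in 27 members (65.9%, against 5.86% of tested genes). The RUNX letters TGTGGT, searched on both strands, were found in 6 members (14.6%), against 14.5% of tested genes and 18.9% of all genes with a window. They were thus about as frequent here as among tested genes. Other forms of the RUNX site were not searched, and distances between RUNX and CHR letters were not measured. These matches are descriptions of letters and not of binding.

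The following stretches show the CHR beside the start of genes from the different steps of mitosis that are described with their values below. Each is written 5′ to 3′ on the strand of the gene, with CHR letters (TTTGAA or its reverse TTCAAA) and CCAAT boxes (CCAAT or ATTGG) in capitals, and some are short because the window ends there. Kif20b carries the CHR letters in tandem, and in Top2a they lie on the opposite strand.
Cdk1, chr10:69352895-69352954, minus strand: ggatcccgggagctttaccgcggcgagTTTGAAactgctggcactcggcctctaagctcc
Plk1, chr7:122159438-122159484, plus strand: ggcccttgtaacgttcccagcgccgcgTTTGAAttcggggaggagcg
Aurka, chr2:172370521-172370565, minus strand: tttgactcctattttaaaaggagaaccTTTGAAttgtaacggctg
Cdc20, chr4:118437329-118437388, minus strand: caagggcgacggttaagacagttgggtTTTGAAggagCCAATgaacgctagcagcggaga
Cenpf, chr1:189688052-189688111, minus strand: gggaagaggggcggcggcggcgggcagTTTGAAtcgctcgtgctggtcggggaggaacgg
Kif20b, chr19:34922338-34922397, plus strand: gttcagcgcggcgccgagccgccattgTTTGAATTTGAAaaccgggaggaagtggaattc
Ect2, chr3:27153807-27153866, minus strand: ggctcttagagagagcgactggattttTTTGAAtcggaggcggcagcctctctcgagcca
Top2a, chr11:99024180-99024239, minus strand: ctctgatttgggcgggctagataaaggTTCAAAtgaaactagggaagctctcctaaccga
Ncapg, chr5:45669868-45669927, plus strand: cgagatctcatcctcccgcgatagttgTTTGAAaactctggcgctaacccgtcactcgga

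The members with RUNX letters were Ccnf, Plk1, Kif2c, Kif11, Kif18b and Ect2. Stretches of Ccnf, in which the match was closest to the start, and of Kif11 and Ect2 are shown with TGTGGT or its reverse ACCACA in capitals.
Ccnf, chr17:24251422-24251481, minus strand: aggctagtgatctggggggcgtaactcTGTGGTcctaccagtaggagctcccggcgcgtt
Kif11, chr19:37376261-37376320, plus strand: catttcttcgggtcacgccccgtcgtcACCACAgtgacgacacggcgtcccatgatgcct
Ect2, chr3:27154065-27154124, minus strand: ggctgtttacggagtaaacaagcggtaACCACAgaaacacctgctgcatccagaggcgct

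The libraries held between 3189035 and 3907936 reads counted on genes. Cbfb, measured to check the labels, had 295 and 285 reads in sgNT and 125 in each sgCbfb library. Its log2 fold change was -1.27 (standard error, SE, 0.12, limma adjusted p = 1.76e-07), so Cbfb mRNA stood at 41.5% of its sgNT level. The limma adjusted p was 0.290 without a low-value filter and 0.115 without the mean-variance trend, at the same log2 fold change. The label of a colorectal cancer cell was compared with cell type markers. The 8 epithelial markers together had between 5 and 7 reads in a library, and Krt18 and Vil1 had 0 reads in every library. The 7 immune markers together had between 0 and 6 reads. The 5 fibroblast markers together had 245 and 222 reads in sgNT and 314 and 267 in sgCbfb, most of them from Pdgfra and Dcn, and their part in any result was not tested.

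All 49 members had reads in every library, though the least abundant were measured less precisely. Values are deposited log2 CPM, the read count scaled to the library total on a log scale, and 3′ sequencing reads transcript ends, so that levels can be set beside each other without a correction for length. Members had between 42 and 5043 reads in a library, and each passed the low-value filter. The most abundant were Top2a, the topoisomerase that untangles sister chromatids, at 10.29 and 10.28 log2 CPM in sgNT and 10.33 and 10.29 in sgCbfb, and the condensin subunit gene Smc4, at 9.98 and 10.17 in sgNT and 10.05 and 9.92 in sgCbfb. Birc5, Mki67 and Cenpe followed, with mean levels of 9.08, 9.00 and 8.95. The libraries of Birc5 overlapped those of Mki67, and those of Mki67 overlapped those of Cenpe, whereas every Birc5 library was above every Cenpe library. The least abundant was the kinesin gene Kif18b, at 3.69 and 3.99 in sgNT and 3.82 and 4.18 in sgCbfb. From Kif18b to Top2a the mean level spanned 83.1-fold, whereas no member differed by more than 1.31-fold between the groups.

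**Figure D1:**
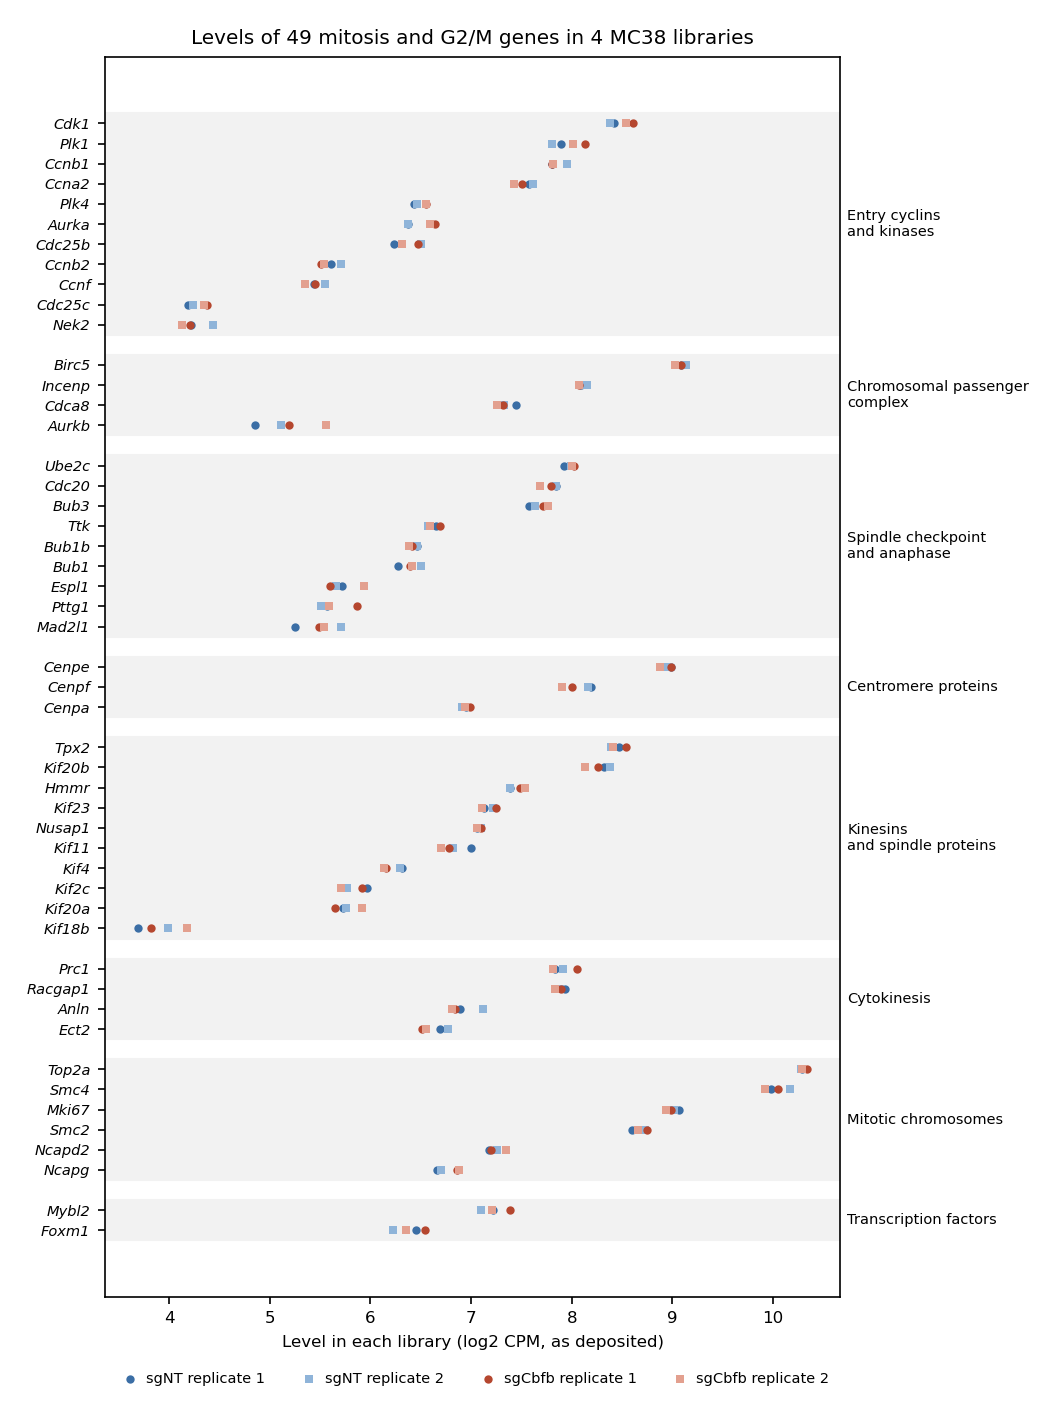
Level of each of the 49 mitosis and G2/M genes (rows, grouped by role) in log2 CPM on the horizontal axis, with 1 point per library, blue for sgNT and red for sgCbfb. The genes differ 83.1-fold in mean level, and the 4 points of a gene lie close together.

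No member passed the test between sgCbfb and sgNT cells. Of 49 members, 0 were higher and 0 were lower at an adjusted p under 0.05 (limma on the deposited log2 values, Benjamini-Hochberg adjustment over 12207 genes). Over all genes tested the same rule called 345, which is 2.83%, and among the 6972 genes within the members' range of mean level it called 255 (3.66%), so that the count of 0 among 49 is close to this background. At an unadjusted p under 0.05 by limma, 8 members passed (16.3%, against 14.9% of all genes tested). This count was 4 without sgNT replicate 2 and also 4 without sgCbfb replicate 1, 0 without the mean-variance trend and 13 in voom with median scaling. Voom with limma on reads recovered from the values called 0 members with library totals and 1, Cenpf, with median scaling. The log2 fold changes had both signs, 27 positive and 22 negative, with a median of 0.024 beside 0.039 over all genes tested. This split went to 23 and 26 with quantile normalization, 25 and 24 with median centring and 19 and 30 in voom with median scaling. The members' median was -0.0051 with quantile normalization and -0.0064 in voom with median scaling. As single libraries were left out it ranged from -0.026 to 0.011.

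Because a test that is not passed does not show equality, the intervals of the differences were examined. The 95% confidence interval of the log2 fold change lay within 1.25-fold in either direction for 31 of the 49 members, within 1.5-fold for 47, and within 2-fold for all 49. Of all genes tested, 19.1%, 48.9% and 72.6% had an interval within 1.25-fold, 1.5-fold and 2-fold. All genes tested include genes of lower level than any member, and intervals were not compared within the members' range of level. The exceptions at 1.5-fold were Aurkb, with an interval from 1.05 to 1.64 times the sgNT level, and Kif18b, with one from 0.807 to 1.55 times. The median standard error was 0.085 for members and 0.19 for all genes tested. With the p-value of the last gene called (0.00139), a member needed a log2 change between 0.19 and 0.82 to be called, with a median of 0.31, or 1.24-fold. These limits hold for this filter and variance model as well as for the depth and the 2 libraries per group. In 32 members (65.3%) the difference between the group means was smaller than the larger of its replicate differences, against 67.9% of all genes tested.

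**Figure D2:**
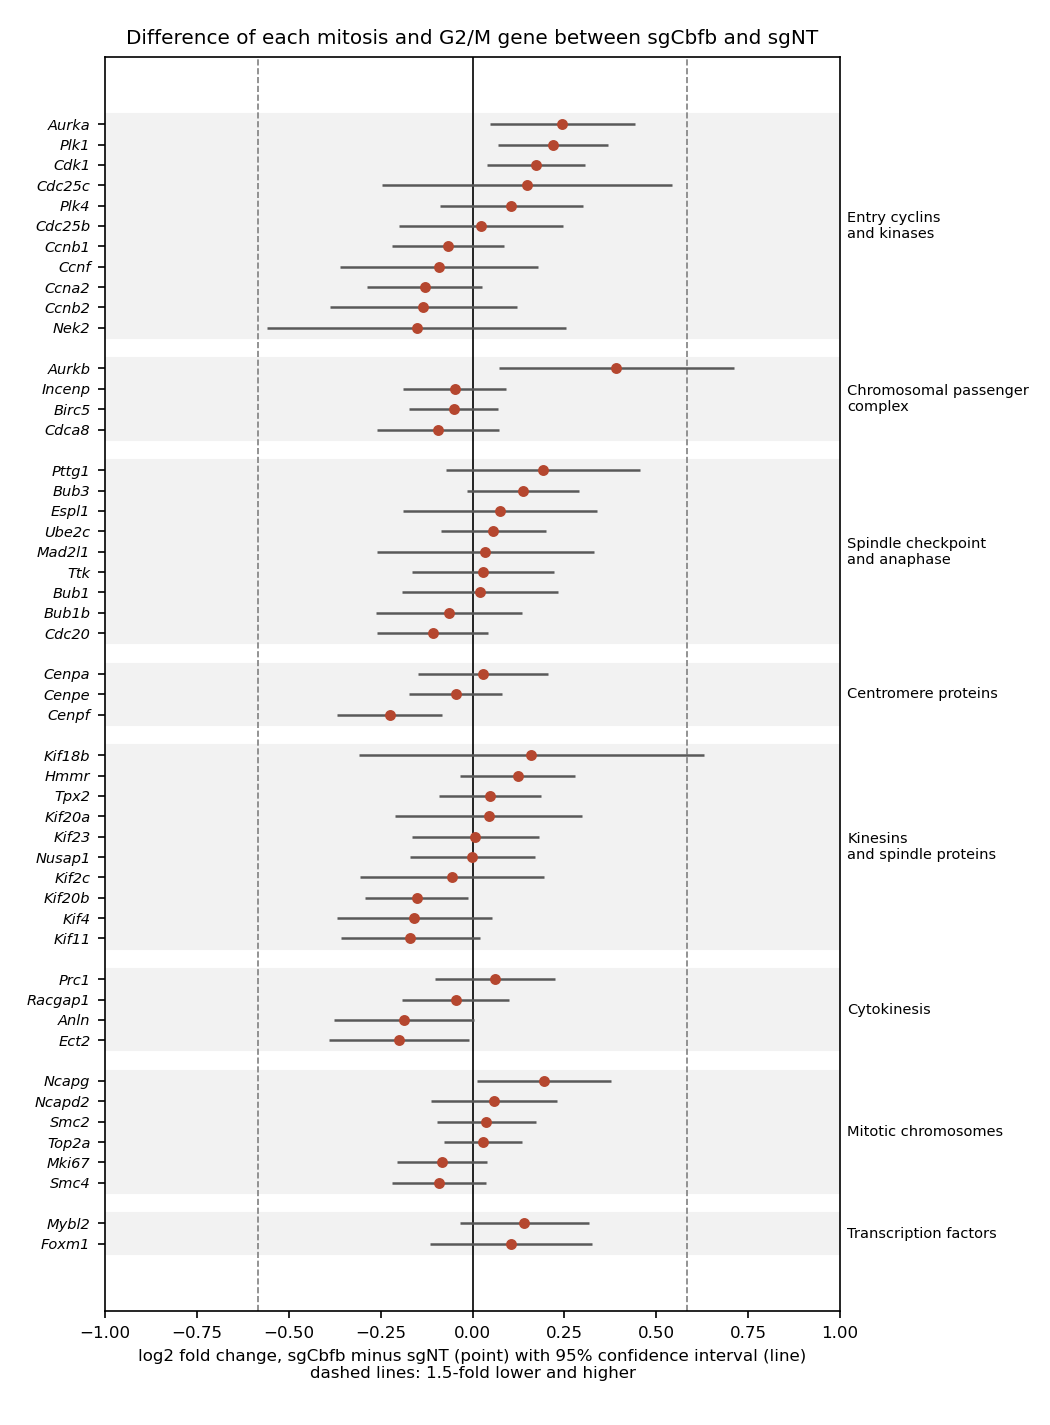
Log2 fold change (sgCbfb minus sgNT, horizontal axis) of each of the 49 genes, grouped by role, with its 95% confidence interval. All points lie between -0.23 (Cenpf) and 0.39 (Aurkb), and 47 of the 49 intervals stay inside the dashed lines at 1.5-fold.

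**Figure D3:**
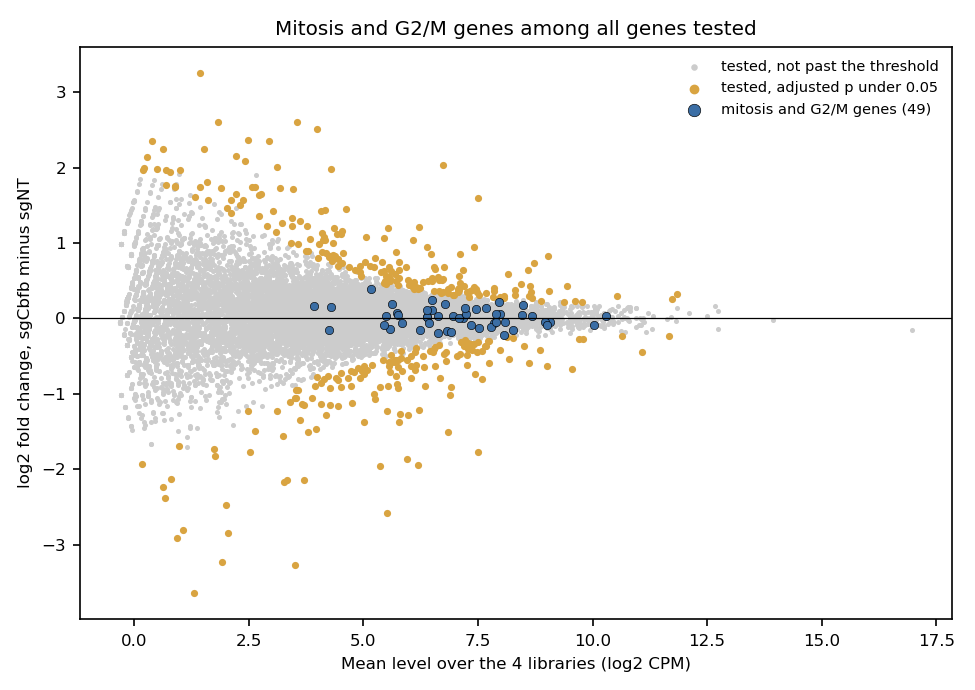
Log2 fold change (vertical axis) against mean log2 CPM over the 4 libraries (horizontal axis) for 12207 tested genes, with the 345 genes past the threshold in yellow and the 49 mitosis and G2/M genes in blue. The blue points lie near 0 and none coincides with a gene past the threshold.

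Summed, the members accounted for 1.02% and 1.04% of the reads in sgNT and 1.04% and 0.998% in sgCbfb. The groups overlapped, with the lowest and the highest share both in sgCbfb. For a sum compared over 2 and 2 libraries, the smallest p that exact permutation allows is 0.333. The median deviation of the members from their mean over the 4 libraries was -0.016 and 0.0092 in sgNT and 0.012 and -0.040 in sgCbfb on the log2 scale. On this scaling to library totals the sgCbfb replicates lay on opposite sides of the sgNT replicates. The median deviation of all genes tested was -0.021 and -0.011 in sgNT and 0.038 and 0.011 in sgCbfb. Relative to it the members' medians were 0.0049 and 0.021 in sgNT and -0.027 and -0.051 in sgCbfb, so that both sgCbfb libraries were then the lower ones.

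**Figure D4:**
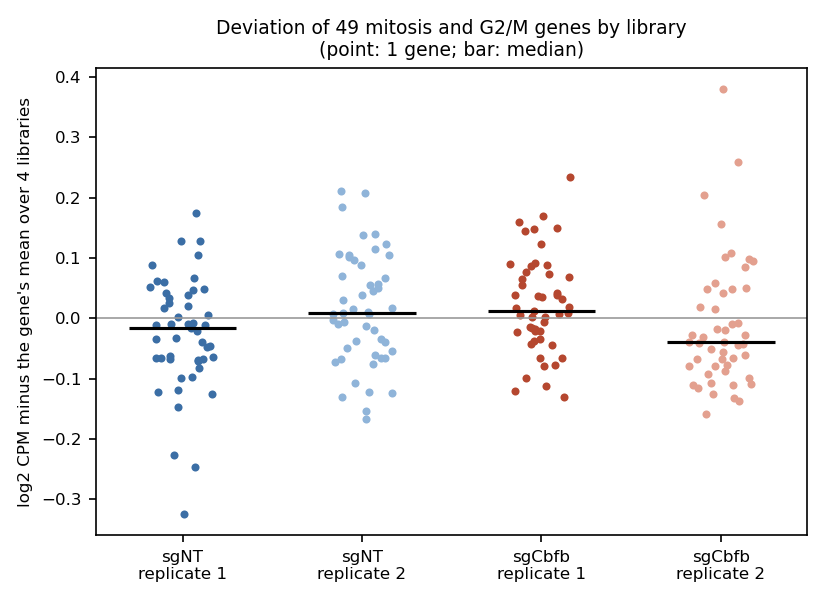
Log2 CPM of each gene minus its own mean over the 4 libraries (vertical axis), for each library (horizontal axis), with 1 point per gene and a bar at the median over 49 genes. The medians lie between -0.040 and 0.012, and those of the sgCbfb replicates are the lowest and the highest on this scaling to library totals. After subtraction of the median of all genes tested, both sgCbfb replicates are the lowest, at -0.027 and -0.051.

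Both sgCbfb libraries lay above both sgNT libraries for 12 members (24.5%, against 27.4% of all genes tested) and below both for 14 (28.6%, against 16.8%). Members without overlap thus lay below somewhat more often than above, whereas over all genes tested more lay above. This difference in balance was not tested.

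Of the 11 cyclins and kinases of mitotic entry, 0 passed the test, 3 had an unadjusted p under 0.05 by limma (27.3%, against 14.9% of all genes tested), and log2 fold changes ran from -0.15 (Nek2) to 0.24 (Aurka). The 4 cyclin genes had negative values, and of the kinase genes Cdk1, Plk1, Plk4 and Aurka had positive values and Nek2 a negative one. Cdk1, the kinase that triggers mitosis (chr10:69335146-69352938, GRCm38), had 1164 and 1111 reads in sgNT and 1527 and 1184 in sgCbfb. Scaled to library totals it was 8.42 and 8.38 log2 CPM in sgNT and 8.61 and 8.54 in sgCbfb. Both sgCbfb libraries lay above both sgNT libraries, by 0.17 on the log2 scale (SE 0.064, limma adjusted p = 0.174). Plk1, the Polo-like kinase needed for spindle assembly and mitotic exit (chr7:122159439-122169873), was 7.89 and 7.81 log2 CPM in sgNT and 8.13 and 8.01 in sgCbfb. Its level in sgCbfb was 1.16 times that in sgNT (95% interval 1.05 to 1.29, adjusted p = 0.115 from limma). Aurka, the Aurora kinase of centrosomes and spindle poles, was 6.37 in both sgNT libraries and 6.64 and 6.59 in sgCbfb, a ratio of 1.18 (interval 1.03 to 1.36, adjusted p = 0.198 from limma). Over 14 alternatives the limma adjusted p ranged from 0.118 to 0.645 for Cdk1 and from 0.0564 to 0.778 for Plk1, so neither passed in any of them.

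The cyclin partners of Cdk1 had negative values, with intervals that spanned no change. Their limma adjusted p was 0.749 for Ccnb1, 0.683 for Ccnb2 and 0.450 for Ccna2. Ccnb1 was 7.80 and 7.95 log2 CPM in sgNT and 7.81 in both sgCbfb libraries, a log2 fold change of -0.067 with an interval from -0.22 to 0.085. Ccnb2 was 5.61 and 5.70 in sgNT and 5.51 and 5.53 in sgCbfb, a log2 fold change of -0.13 with an interval from -0.39 to 0.12. Ccna2, the cyclin of S phase and G2, was 7.57 and 7.62 in sgNT and 7.51 and 7.42 in sgCbfb, 0.913 times the sgNT level (interval 0.819 to 1.02). Its 3′ end overlaps exons of Exosc9 on the opposite strand. Of the remaining entry genes, Plk4, Cdc25b and Cdc25c had log2 fold changes between 0.024 and 0.15, and Ccnf and Nek2 had -0.091 and -0.15, with 54 to 70 Nek2 reads per library.

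The chromosomal passenger complex corrects faulty attachments of chromosomes to the spindle. Its kinase gene Aurkb (chr11:69045647-69051664) had the highest log2 fold change of all members, 0.39 (standard error 0.15), but not past the threshold (adjusted p = 0.206 from limma). It had 96 and 113 reads in sgNT and 140 and 148 in sgCbfb, or 4.85 and 5.11 against 5.19 and 5.55 log2 CPM. The groups did not overlap, although sgNT replicate 2 and sgCbfb replicate 1 lay close together. Without sgCbfb replicate 2 the difference was 0.21, and without sgCbfb replicate 1 it was 0.58. The other subunits were far more abundant and had small negative values. Birc5, which codes for survivin, was 9.08 and 9.13 log2 CPM in sgNT and 9.09 and 9.02 in sgCbfb (log2 fold change -0.052, interval -0.17 to 0.070, and -0.086 to -0.017 as single libraries were left out). Incenp, the scaffold of the complex, and Cdca8, which codes for borealin, had -0.048 and -0.093.

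Of 9 genes of the spindle checkpoint and of anaphase, 0 passed the test and 0 had an unadjusted p under 0.05 by limma, against 2.83% and 14.9% of all genes tested. The smallest p was that of Bub3 (chr7:131560222-131571895), a checkpoint protein at the kinetochore, which was 7.57 and 7.63 log2 CPM in sgNT and 7.71 and 7.77 in sgCbfb (log2 fold change 0.14, SE 0.074, limma adjusted p = 0.406). The most abundant was Ube2c, the ubiquitin-conjugating enzyme of the anaphase-promoting complex, at 7.92 and 7.99 in sgNT and 8.03 and 8.0 in sgCbfb. Cdc20, the activator that the checkpoint restrains, was 7.85 in both sgNT libraries and 7.80 and 7.68 in sgCbfb, a log2 fold change of -0.11 with an interval from -0.26 to 0.042. Elovl1 has exons on the opposite strand at the 3′ end of Cdc20. The kinase genes Bub1, Bub1b and Ttk had log2 fold changes of 0.020, -0.065 and 0.028. Mad2l1 ranged from 5.25 to 5.70 within sgNT alone, which enclosed both sgCbfb libraries. Pttg1, which codes for securin, and Espl1, which codes for the separase it inhibits, had 0.19 and 0.074.

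Cenpf had the smallest p-value of all members. It codes for a large kinetochore protein that appears in G2 and lies on chr1:189640606-189688086. Cenpf had 994 and 954 reads in sgNT and 999 and 764 in sgCbfb. Scaled to library totals it was 8.20 and 8.16 log2 CPM in sgNT, or 8.18 ± 0.023 (SD, n = 2), and 8.0 and 7.91 in sgCbfb, or 7.95 ± 0.066 (SD, n = 2). The sgCbfb libraries were both the lower ones, at 0.856 times the sgNT level (interval 0.775 to 0.944, log2 fold change -0.23, adjusted p = 0.0827 from limma). It was past the threshold with a minimum of 5 CPM (adjusted p = 0.0406 from limma), with median centring (0.0402) and in voom with median scaling (0.0161), with a range from 0.0161 to 0.578 over all 14 alternatives. The other centromere genes had values closer to 0. Cenpe, a kinetochore motor, was 8.99 and 8.96 in sgNT and 8.99 and 8.87 in sgCbfb, and Cenpa, the centromeric histone, had a log2 fold change of 0.028.

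The 10 kinesins and spindle proteins had log2 fold changes from -0.17 (Kif11) to 0.16 (Kif18b). Of the 10, 0 passed the test and 1 had an unadjusted p under 0.05 by limma, against 2.83% and 14.9% of all genes tested. Kif20b (chr19:34922361-34975745), a kinesin of the central spindle, had the smallest p of the group. It was 8.32 and 8.38 log2 CPM in sgNT and 8.26 and 8.13 in sgCbfb, or 0.900 times the sgNT level (interval 0.816 to 0.992, limma adjusted p = 0.285). Its log2 fold change of -0.15 was -0.090 without sgCbfb replicate 2. Kif11, the motor that separates spindle poles, was 7.0 and 6.82 in sgNT and 6.78 and 6.70 in sgCbfb, and Kif4, the chromokinesin, was 6.31 and 6.30 against 6.16 and 6.13. For these 3 kinesins the sgCbfb libraries lay below the sgNT libraries. Of the other genes of the group of 10, 1 lay above and 6 overlapped. Over all genes tested 16.8% lay below and 27.4% above. Tpx2, the activator of Aurora A on the spindle, was the most abundant, with 8.47 and 8.39 in sgNT and 8.54 and 8.41 in sgCbfb. Nusap1 was nearly level, at 7.06 and 7.09 in sgNT and 7.09 and 7.06 in sgCbfb, with an interval from -0.17 to 0.17 on the log2 scale. Kif2c, Kif20a, Kif23 and Hmmr had log2 fold changes between -0.056 and 0.12.

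Cytokinesis begins at the central spindle, where PRC1 bundles microtubules and centralspindlin recruits ECT2, the exchange factor that activates RhoA. Ect2 (chr3:27097222-27153878) was 6.70 and 6.77 log2 CPM in sgNT and 6.51 and 6.55 in sgCbfb, a log2 fold change of -0.20 (SE 0.092, limma adjusted p = 0.304). Anln, the anillin gene of the contractile ring, had a value of similar size, -0.19 (interval -0.38 to 0.0034), and both its sgCbfb libraries lay below its sgNT libraries. Racgap1, a centralspindlin subunit, had -0.045, at a mean level within the spread of that of Prc1. Prc1 was 7.83 and 7.91 in sgNT and 8.05 and 7.81 in sgCbfb, so that its sgCbfb replicates lay on either side of sgNT. Its 3′ end overlaps exons of Rccd1 on the opposite strand.

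Among genes of mitotic chromosomes, Ncapg, a condensin I subunit (chr5:45669919-45700546), was 6.66 and 6.70 log2 CPM in sgNT and 6.86 and 6.88 in sgCbfb. The log2 fold change was 0.20 (SE 0.088, limma adjusted p = 0.294), and its 3′ end overlaps exons of Lcorl on the opposite strand. The other condensin genes had smaller values, 0.058 for Ncapd2, 0.038 for Smc2 and -0.091 for Smc4. Top2a was the most precisely measured member, with a log2 fold change of 0.028 (interval -0.078 to 0.13, and 0.0063 to 0.049 as single libraries were left out) on 3994 to 5043 reads per library. Mki67, which codes for the proliferation marker Ki-67, was 9.07 and 9.02 in sgNT and 8.98 and 8.94 in sgCbfb, 0.944 times the sgNT level (interval 0.867 to 1.03).

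The transcription factor genes overlapped between the groups. Mybl2 (chr2:163054687-163084688) was 7.21 and 7.09 log2 CPM in sgNT and 7.39 and 7.21 in sgCbfb, a log2 fold change of 0.14 (SE 0.086, limma adjusted p = 0.477). It was 0.052 without sgCbfb replicate 1, 0.082 without sgNT replicate 2 and 0.23 without sgCbfb replicate 2. Foxm1 (chr6:128362967-128376146) was 6.46 and 6.23 in sgNT and 6.54 and 6.35 in sgCbfb, a log2 fold change of 0.10 (SE 0.11, limma adjusted p = 0.720). As single libraries were left out this value ranged from -0.0089 to 0.22. For both genes replicate 1 was the higher library in either group.

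Fold changes were set beside the promoter letters. The 30 members with CHR letters had a median log2 fold change of 0.018, and the 11 with a window but without these letters had one of 0.020. The 6 members with RUNX letters had log2 fold changes from -0.20 (Ect2) to 0.22 (Plk1) with a median of -0.074, beside 0.024 in the 35 without, and 0 of either kind passed the test. Over all tested genes with a window the medians were 0.045 with RUNX letters and 0.039 without, so the members' difference in median had the other sign, and 3.40% of genes with these letters and 2.67% of those without were called. These shares and medians are given as descriptions, with no test.

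Other genes of the same pathway were counted from a list of 116 that excluded the members. All 116 passed the low-value filter, 0 were higher and 0 were lower in sgCbfb by limma, 13 had an unadjusted p under 0.05 (11.2%), and the median log2 fold change was 0.0024. Over all genes tested these shares were 2.83% called in either direction and 14.9% at an unadjusted p under 0.05, so the share at an unadjusted p was below that of all genes. The count at an unadjusted p under 0.05 was 3 of 38 kinetochore genes, 3 of 18 spindle genes, 2 of 10 mitotic entry genes, 3 of 17 genes of the anaphase-promoting complex, 1 of 14 condensin and cohesin genes, 0 of 8 cytokinesis genes and 1 of 11 genes of DREAM and MuvB. Those with the smallest p-values were Dsn1, a subunit of the kinetochore complex that holds NDC80, Kpna2, an importin that carries spindle factors, and Rbbp4, a histone-binding subunit of MuvB. Dsn1 was 4.21 and 4.28 log2 CPM in sgNT and 4.68 and 4.80 in sgCbfb, a log2 fold change of 0.49 (SE 0.18, limma adjusted p = 0.163). Kpna2 had -0.21 (adjusted p = 0.167 from limma) and Rbbp4 had 0.18 (adjusted p = 0.182 from limma). Without sgNT replicate 2 the value of Rbbp4 was 0.11, and its 3′ end overlaps exons of Sync on the opposite strand.

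For comparison, 31 genes of the G1/S transition and DNA replication had a median log2 fold change of 0.073. Of these, 1 was lower in sgCbfb by limma, 0 were higher and 6 had an unadjusted p under 0.05. The shares, 3.23% and 19.4%, were near those of all genes tested, 2.83% and 14.9%. The gene that fell was Ccnd1, the G1 cyclin, whose 3′ end overlaps exons of LTO1 on the opposite strand, from 9.82 and 9.85 log2 CPM in sgNT to 9.59 and 9.53 in sgCbfb (log2 fold change -0.27, SE 0.055, limma adjusted p = 0.00353). Without sgCbfb replicate 2 its difference was -0.24 and its adjusted p was 0.0796, and over all alternatives the adjusted p ranged from 1.02e-05 to 0.486. The replication origin gene Orc1 had -0.65 (adjusted p = 0.0707 from limma) and E2f1, the activator of G1/S genes, had 0.33 (adjusted p = 0.107 from limma), and neither passed. Over the alternatives their adjusted p ranged from 0.0326 to 0.496 and from 0.0450 to 0.903, and E2f1 had 0.20 without sgCbfb replicate 2. The difference between the G1/S and the mitotic list was not tested.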

How the data were processed

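The authors used cutadapt for trimming, HISAT2 for alignment to GRCm38/mm10 and featureCounts for counts per gene (versions 1.9, 2.1.0 and 2.0.1 in the submitters' processing notes, while the study's methods give another featureCounts version), and deposited log2 CPM scaled to each library's total. Annotation release, use of strand and the tool behind the log2 values are not given in the sources used here, so overlapping antisense genes cannot be told apart. At the 3′ end (500 bases), 0 members overlap exons on their own strand (GENCODE M21, all 49 matched). Exons on the other strand overlap 5 members, Ccna2, Cdc20, Kif20a, Prc1 and Ncapg. A named pseudogene exists for 3 members, Ccnb1, Ccnb2 and Kif4.

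The values imply an added prior count of 2. Whole reads were recovered from their steps, within 0.1 of a whole number for at least 99.996% of genes in a library, and were used for depth and for voom. Groups and replicates came from sample titles. Differences were tested with limma 3.58.1 (R 4.3.3; mean-variance trend, two-sided, Benjamini-Hochberg adjustment, threshold 0.05) over the 12207 genes that reached a log2 CPM of 0 in 2 or more libraries. The methods name voom with limma, which takes counts, whereas the deposited values are log2, so no pseudocount was added. Scripts were tested on simulated data. Replicates differed by more than sampling noise (chi-square per degree of freedom 1.58 for sgNT and 2.15 for sgCbfb).

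The members and lists were chosen with earlier results of these data known. Named are, for each of 8 roles, the member with the smallest p and the most abundant, with Foxm1 and Mybl2, and up to 3 genes of each further list. Further members, such as Aurka, the cyclins, Cdc20, Kif11 and Mki67, are outside this rule and were chosen for description after their values were seen. Alternatives were filters, scalings, variance models, the replicate block, single libraries left out, a threshold of 0.01 and voom. Motifs were searched with Python 3.11.15, and figures drawn with matplotlib 3.10.9.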

Additional observations from a re-analysis of the deposited data

How the results depend on the processing

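The members past the threshold stayed at 0 higher genes in all 14 alternatives. The count of lower members was 0 except for 1, Cenpf, with a minimum of 5 CPM, with median centring and in voom with median scaling, and the cause was not tested. The median log2 fold change of the members moved by less than their median standard error throughout. Without single libraries it ranged from -0.026 to 0.011. Against 192 higher and 153 lower genes over all genes tested, there were 2 and 53 without a low-value filter, 300 higher with a minimum of 5 CPM, 0 and 0 when the trend was not fitted (limma, 1461 at an unadjusted p under 0.05), 40 and 48 after quantile normalization, 103 and 97 at a threshold of 0.01, and 175 and 236 in voom with median scaling. Without single libraries there were 61 to 234 higher and 86 to 161 lower genes, with the fewest higher genes without either sgCbfb replicate. The replicate block gave 320 higher genes. Whether same-numbered libraries were made together is not stated. The correlation of their deviations over all genes tested (-0.0042) cannot decide this with 2 libraries per group. With the block 0 members passed, with a lowest limma adjusted p of 0.0661 (Cenpf).

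Cbfb lost its call without a low-value filter and without the trend, at the same log2 fold change of -1.27, and without single libraries it ranged from -1.41 to -1.12. G1/S genes past the threshold numbered 0 lower without a filter and without the trend, 1 higher and 2 lower with a minimum of 5 CPM and with the replicate block, and 2 lower in voom with median scaling. Without single libraries there were 0 to 1 lower. Among other mitotic genes 0 to 1 were higher without single libraries, the 1 being Cenpm (0.50, adjusted p = 0.0203 from limma) without sgNT replicate 2. Members with a positive value numbered 19 to 28 over the alternatives (27 as reported). Among the genes named by the rule, signs turned, never past the threshold, for Top2a (-0.0064 in voom with median scaling) and, as single libraries were left out, for Foxm1 (-0.0089 to 0.22, negative without sgNT replicate 2), Tpx2 (-0.016 to 0.11) and Prc1 (-0.058 to 0.18), both negative without sgCbfb replicate 1, and Cenpe (-0.10 to 0.0099, positive without sgCbfb replicate 2). Depth limits the low members most: Kif18b, on 42 to 56 reads, needed a log2 change of 0.82 to be called. A pseudocount was not varied, because the values are already on a log scale.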
